A study of Danio rerio with 18 samples.

Results

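The photoreceptor arrestins and opsin kinases of the zebrafish are 8 genes, taken by name from the 31624 genes of the table and followed through all 18 libraries. The arrestins were saga (ENSDARG00000012610), sagb (ENSDARG00000038378), arr3a (ENSDARG00000056511) and arr3b (ENSDARG00000098475). The kinases were grk1a (ENSDARG00000058803), grk1b (ENSDARG00000104685), grk7a (ENSDARG00000020602) and grk7b (ENSDARG00000055534). The libraries came from fish of the Tübingen strain, about 1.5 years old, either with frameshift deletions in the melanopsin genes opn4.1 and opn4xb (opn4 dko) or wild-type. For both genotypes there were 3 libraries from eyes, 3 from the anterior brain and 3 from the posterior brain, each made from a pool of 3 fish, so that p-values measure the spread between pools. The fish of both genotypes had been kept for 14 days in a blue light and dark cycle of 12:12 h and were sampled between ZT4 and ZT6. The anterior brain held the pineal.

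A light-activated opsin is switched off in steps: an opsin kinase phosphorylates its tail, and an arrestin then binds the phosphorylated opsin and blocks further activation of the G protein. In the zebrafish retina saga and sagb are arrestins of rods and arr3a and arr3b of cones, the first of these in long- and middle-wavelength cones and the second in short-wavelength and ultraviolet cones, while grk1a belongs to rods and grk1b and grk7a to cones. The zebrafish pineal holds photoreceptors of its own, which use many of these genes and also make melatonin. The comparison of opn4 dko with wild-type asks which genes depend on these melanopsins.

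Library totals ranged from 2186877 to 6946549 reads, and 3 reads, taken as the detection floor, correspond to between 0.418 and 1.47 CPM, the usual count scaled to library size, here with sizes adjusted by the TMM method. The lowest totals were in wild-type eyes, where the third library had reads on 14577 genes. Reads on opn4.1 numbered 1650 to 1844 in opn4 dko eyes and 819 to 1752 in wild-type eyes, which is no check of the labels, since small deletions leave the rest of the gene to be counted. Levels of opn4xb were 9.05 ± 0.719 CPM in opn4 dko eyes and 21.6 ± 6.28 CPM in wild-type eyes (SD, n = 3 each), lower in every opn4 dko eye, with a log2 fold change of -1.28 that did not pass (edgeR's quasi-likelihood test, unadjusted p = 0.0201, FDR 0.993). In the posterior brain opn4.1 had 1, 0 and 0 reads in opn4 dko, against 5, 10 and 5 in wild-type, too few to be tested. In the anterior brain it was not lower, with 19, 16 and 19 reads in opn4 dko, against 0, 31 and 7 in wild-type. The log2 fold change there was 0.65 (SE 0.92, edgeR FDR 0.906). Reads of opn4xb in the anterior brain numbered 15, 0 and 0 in opn4 dko, against 9, 0 and 6 in wild-type. Telencephalon markers summed to 517 to 645 CPM in the opn4 dko anterior brain and 562 to 648 CPM in the wild-type anterior brain, and mid-hindbrain markers to 95.6 to 99.1 CPM in the opn4 dko posterior brain and 88.9 to 120 CPM in the wild-type posterior brain. Since the samples are bulk tissue, fewer cells of a type and less RNA per cell cannot be told apart.

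In the anterior brain, 3 of the 4 arrestins and 1 of the 4 kinases were called higher in opn4 dko, and no member was called lower. A call is an FDR (Benjamini-Hochberg adjusted p-value) below 0.05 in edgeR's quasi-likelihood test, and 0.613% of the 15341 genes tested were called higher. Of the 8 members 5 had enough reads to be tested, and each of these passed that filter only through the opn4 dko libraries, since none had more than 6 reads in a wild-type anterior brain.

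The rod and pineal arrestin saga had 771, 439 and 384 reads in the opn4 dko anterior brain, whereas wild-type had 1, 5 and 1. Its mean was 95.9 ± 11.4 CPM in opn4 dko and 0.403 ± 0.313 CPM in wild-type (SD, n = 3 each), a log2 fold change of 7.67 (SE 0.34, edgeR FDR 2.78e-11). The opn4 dko libraries differed little from each other, with a coefficient of variation of 11.9%, and lay far above every wild-type library. Without the second wild-type library, which held most of the wild-type reads, the log2 fold change was 8.60.

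The other rod arrestin, sagb, had 172, 54 and 37 reads in the opn4 dko anterior brain, against 1, 0 and 4 in the wild-type anterior brain. The mean was 14.6 ± 8.27 CPM in opn4 dko and 0.367 ± 0.455 CPM in wild-type (SD, n = 3 each), with a log2 fold change of 5.37 (SE 0.76, edgeR FDR 3.70e-04). The groups did not overlap, but the opn4 dko libraries were uneven, and the first stood above the others. The log2 fold change was 4.77 without the first opn4 dko library, 4.67 without the second wild-type library and 6.99 without the third, each with an FDR below 0.05. Among replicates 2 and 3 alone, which shared a sequencing lane, it was 4.60 and missed the threshold (edgeR FDR 0.0638).

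The cone arrestin arr3a had 295, 141 and 112 reads in the opn4 dko anterior brain, against 1, 1 and 6 in the wild-type anterior brain. It averaged 32.2 ± 8.30 CPM in opn4 dko and 0.564 ± 0.650 CPM in wild-type (SD, n = 3 each). The lowest opn4 dko library, at 24.6 CPM, lay above the highest wild-type library, at 1.31 CPM. The log2 fold change was 5.88 (SE 0.51, edgeR FDR 9.30e-07), and 7.29 without the third wild-type library. Its paralogue arr3b, the arrestin of short-wavelength cones, was not among the genes called: 2, 0 and 0 reads were found in the opn4 dko anterior brain, against 0, 3 and 0 in the wild-type anterior brain. At most 3 reads in any library is at or under the floor, and a difference of arr3b below the floor could not be seen at this depth. A rise to the level of arr3a would have been seen. In the opn4 dko anterior brain arr3b was at most 0.278 CPM, whereas arr3a was at least 24.6 CPM.

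Among the kinases, grk7a, a cone opsin kinase, had 154, 56 and 21 reads in the opn4 dko anterior brain and no read in any of the wild-type anterior brains. Set against a floor of 3 reads in each wild-type library, grk7a was at least 21.4-fold higher in opn4 dko (edgeR FDR 1.96e-04), with a mean of 12.8 ± 8.42 CPM (SD, n = 3). Without the first opn4 dko library it was at least 14.1-fold higher. All opn4 dko libraries were above all wild-type libraries, although the third, at 4.62 CPM, stood well below the first, at 21.4 CPM.

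Its paralogue grk7b had 41, 27 and 18 reads in the opn4 dko anterior brain, against 6, 0 and 1 in the wild-type anterior brain. These groups did not overlap either, at 5.19 ± 1.07 CPM in opn4 dko and 0.524 ± 0.727 CPM in wild-type (SD, n = 3 each), but the log2 fold change of 3.36 (SE 0.99) did not pass (edgeR FDR 0.151). It passed with edgeR's exact test (FDR 0.0122), without the filter on low counts (FDR 0.0485) and without the first wild-type library (FDR 0.0475), and the FDR ranged up to 0.541 over the other alternatives. In all, 5 of the 8 members lay higher in every opn4 dko anterior brain than in any wild-type anterior brain, as did 7.71% of the genes tested. For these 5 the filter on low counts had already fixed this order. No wild-type library reached its cutoff for them, so that all 3 opn4 dko libraries had to. The share over all genes tested is therefore no measure for these members.

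The remaining kinases had few reads. The cone kinase grk1b had 31, 15 and 0 reads in the opn4 dko anterior brain, against 1, 0 and 0 in the wild-type anterior brain, so that the groups overlapped through the third opn4 dko library. The ratio of the summed reads, scaled to depth, was 43.8 (95% exact interval 7.49 to 1770, which covers counting error only). The rod kinase grk1a, whose identifier was found through the synonym grk1, had no read in any of the 18 libraries, eyes included, where the floor of 3 reads corresponds to 0.602 to 1.47 CPM. It was 1 of 7806 genes without a read in the table, and its expression could not be followed here.

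**Figure D1:**
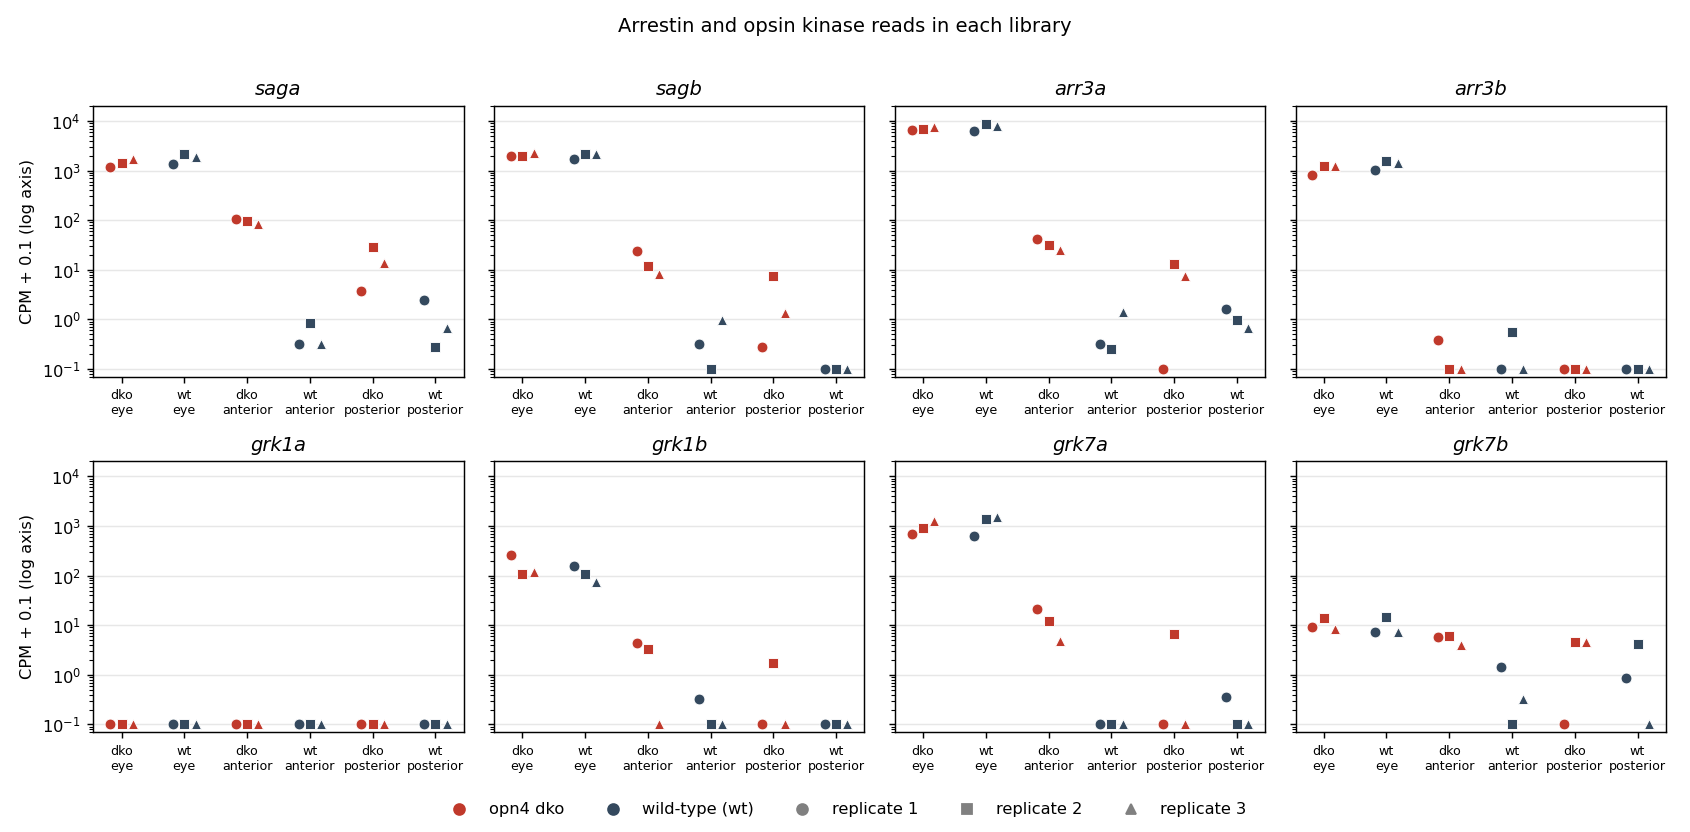
Level of each of the 8 genes in each library, in CPM plus 0.1 on a log axis, so that a library without reads lies at 0.1. Red symbols are opn4 dko and dark symbols wild-type (wt), and the shape gives the replicate. In the anterior brain saga, sagb, arr3a, grk7a and grk7b are higher in all opn4 dko libraries than in all wild-type libraries, whereas in the eye the genotypes overlap for every gene, and grk1a is at 0 throughout.

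In the posterior brain the same genes had fewer reads, and 1 member was called higher, beside 0.175% of the 15417 genes tested. Of the 8 members 2 were tested there, saga and grk7b. As in the anterior brain, a member with few wild-type reads could be tested only where it was high in opn4 dko, and saga was such a member. The reads of saga numbered 20, 106 and 66 in opn4 dko, against 9, 1 and 2 in wild-type, with means of 15.3 ± 12.5 CPM in opn4 dko and 1.02 ± 1.14 CPM in wild-type (SD, n = 3 each). The log2 fold change was 3.95 (SE 0.81, edgeR FDR 0.0370). Every opn4 dko library was above every wild-type library, but the first opn4 dko library, at 3.60 CPM, was close to the first wild-type library, at 2.32 CPM. The call was lost without the second opn4 dko library (log2 fold change 3.11, FDR 0.249), the third opn4 dko library (4.02, FDR 0.121), the second wild-type library (3.36, FDR 0.257) or the third wild-type library (3.73, FDR 0.122). It held without the first wild-type library, with a log2 fold change of 5.42, and among replicates 2 and 3 alone, which shared a lane, with 5.89. Lane as a term of the fit (edgeR FDR 0.0837) or a replicate block also removed the call.

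The reads of sagb in the posterior brain numbered 1, 27 and 6 in opn4 dko, while wild-type had none. This gene was too low to be tested, and relative to the floor of 3 reads in each wild-type library it was at least 4.07-fold higher in opn4 dko. This rests on the second opn4 dko library, without which the bound was 1.01-fold. With saga, it made 2 of the 8 members whose posterior brain libraries did not overlap, as was the case, in this direction, for 7.57% of the genes tested. That share covers only genes that passed the filter, as saga did and sagb did not.

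The other members overlapped between genotypes in the posterior brain. The cone arrestin arr3a had 0, 48 and 35 reads in opn4 dko, against 6, 5 and 2 in wild-type. The kinase grk7a had 0, 24 and 0 reads in opn4 dko, against 1, 0 and 0 in wild-type, and grk1b had 6 reads in the second opn4 dko library and none elsewhere. For grk7b, with 0, 17 and 21 reads in opn4 dko against 3, 23 and 0 in wild-type, the log2 fold change was 0.82 (SE 1.21, edgeR FDR 0.903). The first opn4 dko library had at most 1 read of every member other than saga, whereas the second had reads of 6 members.

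In the eye no member was called, and 0.0254% of the 15773 genes tested were. All 7 members with reads were tested, and the FDR was 0.993 or 0.994 for each of them. None had an unadjusted p-value below 0.05, whereas 675 of the genes tested did, and none was called by edgeR's exact test or by DESeq2. The reads of saga, the member with the lowest unadjusted p-value, numbered 5818, 5703 and 5987 in opn4 dko eyes, against 4090, 6406 and 3897 in wild-type eyes. These are 1420 ± 253 CPM in opn4 dko and 1810 ± 443 CPM in wild-type (SD, n = 3 each), with a log2 fold change of -0.38 and a 95% interval of -0.85 to 0.10.

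The eye intervals show how large a difference of each gene these libraries leave possible. They were narrow for the best counted genes, at -0.33 to 0.39 for sagb, -0.51 to 0.21 for arr3a and -0.79 to 0.19 for arr3b on the log2 scale. They were wider for the kinases, at -1.04 to 0.37 for grk7a, -0.29 to 1.22 for grk1b and -1.26 to 1.45 for grk7b. For grk1b the first opn4 dko eye stood apart, as it had 255, 109 and 118 CPM in opn4 dko eyes, against 159, 108 and 75.1 CPM in wild-type eyes. Without the first opn4 dko eye the log2 fold change of grk1b was -0.01, against 0.47 with it.

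**Figure D2:**
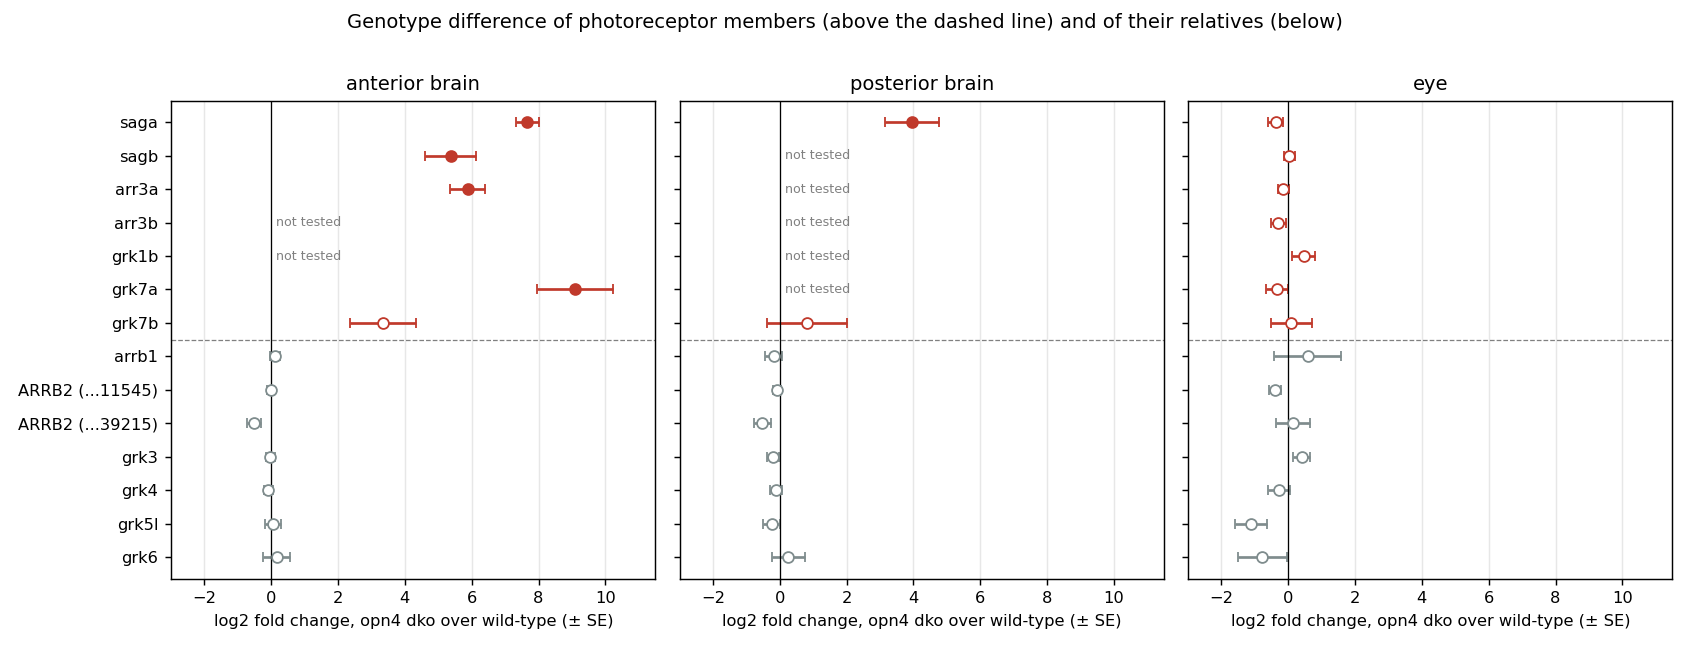
Log2 fold change of opn4 dko over wild-type in the anterior brain, the posterior brain and the eye, with its standard error, for the 7 photoreceptor genes with reads (red, above the dashed line) and for 7 other arrestins and G protein-coupled receptor kinases (grey). Filled symbols have an FDR below 0.05. The anterior brain panel has 4 filled symbols, with log2 fold changes between 5.37 and 9.09, of which that of grk7a rests on wild-type libraries without reads. The posterior brain has 1 filled symbol, and the eye and the relatives have none.

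The genotype effects in the anterior brain and in the eye were compared directly, by the interaction term of a model that held the 18 libraries. The difference, anterior brain minus eye, was called for 4 of the 7 members, beside 0.344% of the 18630 genes tested. It was 8.01 on the log2 scale for saga (SE 0.74, edgeR FDR 2.42e-06), 5.36 for sagb (SE 0.89, FDR 0.00547) and 6.01 for arr3a (SE 0.82, FDR 4.23e-04), and grk7a was called too (FDR 0.0126). The sizes rest on few wild-type reads, and without the second wild-type anterior brain the difference was 8.90 for saga and 4.60 for sagb, and without the third it was 6.91 for sagb and 7.39 for arr3a. Leaving out the first opn4 dko anterior brain gave 4.76 for sagb. The call for grk7a was lost without the first opn4 dko anterior brain (FDR 0.0527) or the second wild-type anterior brain (FDR 0.0731). The difference was 4.37 for grk1b (SE 1.52, FDR 0.535) and 3.22 for grk7b (SE 1.59, FDR 0.846), and arr3b had too few brain reads to bear on it.

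The genotype effects of the anterior and the posterior brain were not distinguished in the same way. No member was called for their difference, and 1 of all the genes tested (0.00537%) was. It was 3.70 for saga (SE 1.28, unadjusted p = 0.00845 in edgeR's quasi-likelihood test, FDR 1) and 3.26 for arr3a (SE 1.36, unadjusted p = 0.0256, FDR 1), and these were the 2 members with an unadjusted p-value below 0.05.

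Within opn4 dko, the anterior brain was compared with the posterior brain in the same fit. In both genotypes, replicates 2 and 3 were in lane 5 for the anterior and in lane 4 for the posterior brain. Replicate 1 was in lane 6 for both. For replicates 2 and 3, brain part and lane therefore cannot be told apart. Of the 7 members 4 were called higher in the anterior brain, beside 9.02% of the genes tested: saga with a log2 fold change of 2.70 (SE 0.40, edgeR FDR 3.73e-05), sagb with 2.56 (SE 0.55, FDR 0.00218), arr3a with 2.37 (SE 0.48, FDR 0.00112) and grk7a with 2.86 (SE 0.76, FDR 0.0106). The second posterior brain decided much of these sizes, and without it they were 3.49 for saga, 4.41 for sagb and 3.21 for arr3a, while grk7a had no read in the other posterior brains of opn4 dko. Without the first posterior brain sagb stood at 1.90 and arr3a at 1.70, and without the first anterior brain sagb stood at 1.97. The call for grk7a was lost without the first anterior brain (FDR 0.0854), the first posterior brain (FDR 0.0652) or the third posterior brain (FDR 0.0627). Within wild-type, 0 of the 7 members were called between the anterior and the posterior brain by edgeR's quasi-likelihood test. Of these, 0 had an unadjusted p-value below 0.05, whereas 15.8% of the genes tested were called. For most members such a difference could hardly have been called, because their counts lay near the floor of 3 reads. No brain library of wild-type held more than 4 reads of sagb, arr3b, grk1b or grk7a. The highest counts of the others were 9 for saga, 6 for arr3a and 23 for grk7b. The absence of calls therefore does not show that these brain parts are alike.

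The eye was the richest source of every member with reads, in both genotypes. All eye libraries were in sequencing lane 7 and all brain libraries in lanes 4, 5 and 6. In each comparison of eye with brain levels or shares, tissue and lane therefore cannot be told apart. In opn4 dko, 6 of the 7 members were called higher in the eye than in the anterior brain, beside 20.9% of the genes tested. In wild-type all 7 were, beside 22.3% of the genes tested. The exception in opn4 dko was grk7b, with 9.23, 13.7 and 8.38 CPM in the eyes and 5.71, 5.91 and 3.96 CPM in the anterior brain. The groups did not overlap, but the log2 fold change of 1.00 (SE 1.03, 95% interval -1.14 to 3.15) did not pass (edgeR FDR 0.483). In wild-type grk7b was called, at 9.63 ± 4.12 CPM in the eye and 0.524 ± 0.727 CPM in the anterior brain (SD, n = 3 each, edgeR FDR 0.00892). The log2 fold change was 4.22, and 6.31 without the first wild-type anterior brain and 3.60 without the second.

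The members did not reach the same part of their eye level in the opn4 dko anterior brain. The mean of saga was 6.75% of its mean in opn4 dko eyes, and the single anterior brain libraries ranged from 5.94% to 7.55%. This share was 0.709% for sagb (0.394% to 1.16%), 0.459% for arr3a (0.352% to 0.586%) and 1.34% for grk7a (0.486% to 2.25%). It was 1.57% for grk1b, where 1 library had no read, and 0.00842% for arr3b, which rests on 2 reads. At the other end stood grk7b, at 49.7% (37.9% to 56.6%), a gene with few reads in the eye.

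These differences appear as different mixtures of paralogues within a library, which do not depend on library size. Of the reads on saga and sagb together, saga took 37.6%, 41.9% and 42.3% in opn4 dko eyes and 81.8%, 89.0% and 91.2% in the opn4 dko anterior brain. The means, 40.6% ± 2.62 and 87.3% ± 4.95 (SD, n = 3 each), differed by -46.7 percentage points (exact permutation test, two-sided, p = 0.1, the smallest p that 3 against 3 libraries allow). The groups did not overlap, and the exact binomial interval of the lowest anterior brain library was 79.1% to 84.2%. In the opn4 dko posterior brain saga took 95.2%, 79.7% and 91.7%, from 21, 133 and 72 reads.

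The cone arrestins showed the same kind of shift. Of the reads on arr3a and arr3b together, arr3a took 88.9%, 85.0% and 85.6% in opn4 dko eyes and 99.3%, 100% and 100% in the opn4 dko anterior brain (difference -13.3 percentage points, exact permutation p = 0.1). Over all 4 arrestins, the rod arrestins saga and sagb took 29.4%, 29.3% and 31.3% of the reads in opn4 dko eyes and 76.0%, 77.8% and 79.0% in the opn4 dko anterior brain (difference -47.6 percentage points, exact permutation p = 0.1). For saga and sagb together the replicates agreed closely within each tissue, and the tissues were far apart. The higher share was that of saga alone. The reads of sagb were 9662 of 52611, 7893 of 46419 and 8177 of 45230 arrestin reads in opn4 dko eyes. In the opn4 dko anterior brain they were a smaller part, at 172 of 1240, 54 of 634 and 37 of 533.

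The pair of grk7a and grk7b ran the other way, with grk7a taking more of the reads in the eye. Of the reads on grk7a and grk7b together, grk7a took 98.6%, 98.5% and 99.3% in opn4 dko eyes and 79.0%, 67.5% and 53.8% in the opn4 dko anterior brain (difference 32.1 percentage points, exact permutation p = 0.1). The last of these rests on 39 reads, with an exact binomial interval of 37.2% to 69.9%. The share of grk1b among the kinase reads was 27.2%, 10.6% and 8.48% in opn4 dko eyes and 13.7%, 15.3% and 0% in the opn4 dko anterior brain, and these overlapped (exact permutation p = 0.6). With 11 such comparisons of shares, of which 1 concerns grk1a, no adjusted p-value could fall below the unadjusted 0.1.

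Between genotypes, the eye mixtures were near each other. The rod arrestins took 30.0% ± 1.13 of the arrestin reads in opn4 dko eyes and 29.7% ± 0.227 in wild-type eyes (SD, n = 3 each, exact permutation p = 1). For saga among the rod arrestins, the opn4 dko eyes, given above, all lay below the wild-type eyes, at 43.9%, 50.9% and 47.4%, with a difference of -6.81 percentage points (exact permutation p = 0.1). The share of arr3a in its pair was 86.5% ± 2.15 in opn4 dko eyes and 85.2% ± 0.569 in wild-type eyes (SD, n = 3 each, exact permutation p = 0.5), and that of grk7a was 98.8% ± 0.444 in opn4 dko eyes and 99.1% ± 0.339 in wild-type eyes (SD, n = 3 each, exact permutation p = 0.5). In the wild-type brain most pairs had under 20 reads, and no share was compared there.

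**Figure D3:**
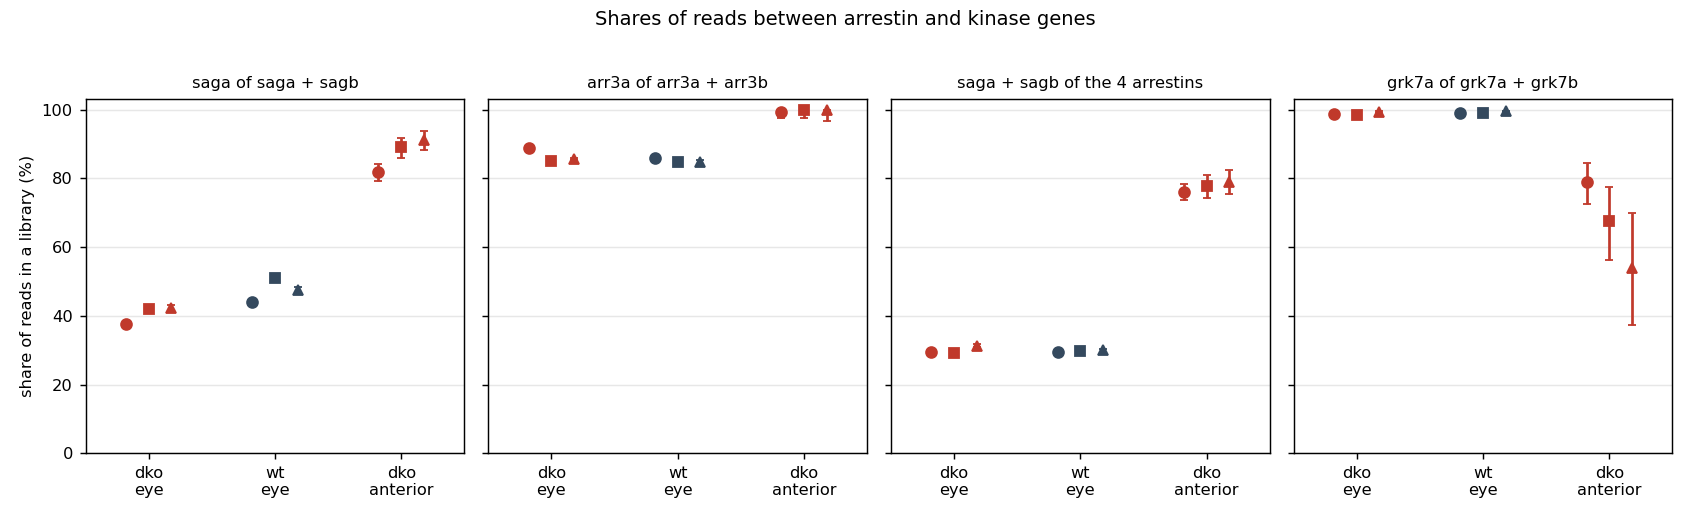
Share of reads, in percent, that saga takes of saga and sagb, arr3a of arr3a and arr3b, the rod arrestins of all 4 arrestins, and grk7a of grk7a and grk7b. Each point is a library of opn4 dko eyes (red, left), wild-type eyes (wt, dark, centre) or the opn4 dko anterior brain (red, right), shapes give replicates 1 to 3 as circle, square and triangle, and bars are 95% exact binomial intervals. The rod arrestins saga and sagb together hold 29.3% to 31.3% of the arrestin reads in the eyes and 76.0% to 79.0% in the opn4 dko anterior brain. Most of the latter are reads of saga, and the part of sagb alone is smaller there than in the eyes.

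None of the relatives of the members was called. The beta-arrestins and the other G protein-coupled receptor kinases desensitise many receptors in many tissues, and 8 of the 11 names listed were found. None of the 7 tested in the anterior brain was called in opn4 dko against wild-type, beside 1.05% of all genes tested, and their median log2 fold change was -0.02, against -0.003 over all genes tested. For example arrb1 had 106, 96.9 and 130 CPM in the opn4 dko anterior brain, against 110, 105 and 90.8 CPM in the wild-type anterior brain (log2 fold change 0.11, SE 0.15). The widest difference was that of the beta-arrestin named ARRB2 with the identifier ENSDARG00000039215, with a log2 fold change of -0.51 (SE 0.21, edgeR FDR 0.448). The other ARRB2 gene (ENSDARG00000011545) had -0.02 (SE 0.12), grk3 -0.03 (SE 0.14), grk4 -0.09 (SE 0.14), grk5l 0.04 (SE 0.23) and grk6 0.16 (SE 0.41), and grk5 had a single read in the anterior brain. None of the relatives was called in the posterior brain (7 tested) or the eye (8 tested) either.

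Between tissues, most relatives were higher in the brain. In opn4 dko, arrb1 averaged 8.34 ± 6.38 CPM in the eye and 111 ± 17.0 CPM in the anterior brain (SD, n = 3 each), and 5 of the 8 relatives were called lower in the eye, beside 19.1% of the genes tested. These were arrb1, both ARRB2 genes, grk4 and grk5l. In the mean 7 of the 8 were above their eye level in the opn4 dko anterior brain, whereas none of the members was. This was not particular to the members. Of the other light response genes described below, 0 of 16 activation genes and 1 of 13 recovery genes were above it. Among the relatives the exception was grk5, called higher in the eye, at 8.68 ± 2.74 CPM in the eye and 0 CPM in the anterior brain of opn4 dko (SD, n = 3 each, edgeR FDR 0.00167).

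The other genes of the light response were followed as lists. Of the activation genes, which carry the signal from opsin to channel, 18 of 22 were found and 11 tested in the anterior brain. Of these 7 were called higher in opn4 dko, beside 0.613% of the genes tested, and none lower. As for the members, a gene with few wild-type reads could be tested only where it was high in opn4 dko. The subunits pde6b of the phosphodiesterase, with 66, 58 and 10 reads in opn4 dko, and cnga1a of the rod channel, with 94, 49 and 15, had no reads in the wild-type anterior brain. They were at least 13.4-fold and at least 15.1-fold higher in opn4 dko (edgeR FDR 0.00261 for pde6b and 0.00101 for cnga1a). The broadly used G protein subunit gnb1b had the smallest change, with 394 ± 14.7 CPM in opn4 dko (SD, n = 3) and an edgeR FDR of 0.999.

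Of the other recovery genes, which restore the dark state beside the members, 14 of 19 were found and 8 tested in the anterior brain. Of these 5 were called higher in opn4 dko, beside 0.613% of the genes tested, and none lower. The limit on genes with few wild-type reads holds for them too. Recoverins hold back the opsin kinase at high calcium. The recoverin rcvrna had 64, 51 and 41 reads in the opn4 dko anterior brain and none in wild-type, at least 16.2-fold higher (edgeR FDR 2.72e-04), and rcvrn3 averaged 70.2 ± 29.1 CPM in opn4 dko and 0.272 ± 0.148 CPM in wild-type (SD, n = 3 each, FDR 5.24e-09). The smallest change was in a gene named GNB5 (ENSDARG00000055377), which forms a complex with RGS9, at 29.3 ± 5.71 CPM in opn4 dko and 28.8 ± 0.491 CPM in wild-type (SD, n = 3 each). In the posterior brain none of the 4 activation and 5 recovery genes tested was called. Most of the 18 activation and 14 recovery genes found had too few reads there to be tested. Among these was the transducin subunit gnat1, which the study called higher there. It had 0, 110 and 22 reads in the opn4 dko posterior brain and none in wild-type. In the eye 1 of 16 activation genes, pde6gb, was called lower in opn4 dko, at 464 ± 85.0 CPM against 1630 ± 142 CPM in wild-type (SD, n = 3 each), and none of the 13 recovery genes was.

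The visual opsins that these arrestins and kinases act on in the retina had few reads in the brain. Of the 7 cone opsins found, none had enough reads to be tested in the anterior brain, and their sum was 0 to 2.23 CPM in opn4 dko and 0 to 1.35 CPM in wild-type, against 2840 to 5860 CPM in opn4 dko eyes and 3630 to 4110 CPM in wild-type eyes. A rhodopsin gene (ENSDARG00000002193, 1 of 2 genes with that name in the gene table) had 10, 0 and 0 reads in the opn4 dko anterior brain, against 3, 0 and 9 in the wild-type anterior brain, while eye libraries held 78672 to 206694. Neither vsx1, a marker of retinal bipolar cells, nor any of the 3 lens markers had a read in any anterior brain library. Pigment epithelium markers summed to 5.43, 0.656 and 0.659 CPM in opn4 dko, against 0, 0 and 0.657 CPM in wild-type. The sum of the cone opsins was also highest in the first opn4 dko library, at 2.23, 0 and 1.1 CPM, against 1.35, 0.153 and 0 CPM in wild-type. Whether eye tissue was carried into anterior brain samples was not tested.

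Pineal markers moved with the members. Of the 8 listed 6 were found and 5 tested in the anterior brain, and 4 were called higher in opn4 dko, beside 0.613% of the genes tested. Here too a gene with few wild-type reads could be tested only where it was high in opn4 dko. The sum of the markers was 146, 108 and 66.8 CPM in the opn4 dko anterior brain, against 9.48, 5.35 and 6.13 CPM in the wild-type anterior brain. The melatonin enzyme gene asmt had 74.6, 61.5 and 34.7 CPM in opn4 dko, against 0.677, 1.07 and 1.31 CPM in wild-type (log2 fold change 5.76, SE 0.39, edgeR FDR 1.64e-08), and tph1a, an enzyme of serotonin synthesis, averaged 12.8 ± 4.11 CPM in opn4 dko and 0.585 ± 0.825 CPM in wild-type (SD, n = 3 each, edgeR FDR 0.00320). The smallest change was that of aanat2, another melatonin enzyme gene, at 13.5 ± 9.13 CPM in opn4 dko and 3.74 ± 1.13 CPM in wild-type (SD, n = 3 each, log2 fold change 1.86, edgeR FDR 0.0990). The photoreceptor gene parietopsin had no read in any library. Of the other pineal opsins listed, exorh and parapinopsina were not found among the gene names. The opsin gene parapinopsinb reached 925% (583% to 1240%) of its opn4 dko eye mean of 1.36 CPM in the opn4 dko anterior brain. The other pineal markers with reads lay below their opn4 dko eye means there, as the members did. They stood at 72.2% for asmt, 65.4% for tph1a, 7.6% for aanat2 and 4.87% for otx5.

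How the members compared with these markers depended on the marker. Per 100 reads on the pineal markers together, the 8 members had 140, 148 and 188 reads in the opn4 dko anterior brain, against 23.8, 25.7 and 42.9 in the wild-type anterior brain, and the genotypes did not overlap. The gene aanat2 held 172, 42 and 33 of the 1048, 494 and 304 marker reads in opn4 dko, against 22, 18 and 16 of 42, 35 and 28 in wild-type. Per read on asmt alone, a comparison chosen after seeing the data, the 8 members had 2.74, 2.60 and 3.62 reads in opn4 dko, against 3.33, 1.29 and 2.00 in wild-type, and the genotypes overlapped.

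Single members differed in this respect. For saga the values per 100 marker reads were 73.6, 88.9 and 126 in opn4 dko, against 2.38, 14.3 and 3.57 in wild-type, and per asmt read they were 1.44, 1.56 and 2.43 in opn4 dko, against 0.333, 0.714 and 0.167 in wild-type, with no overlap on either scale. For arr3a there was no overlap per 100 marker reads, at 28.1 to 36.8 in opn4 dko and 2.38 to 21.4 in wild-type, but there was per asmt read, at 0.502 to 0.709 in opn4 dko and 0.143 to 1.00 in wild-type. On both scales sagb and grk7b overlapped. The groups of grk7a did not overlap, since wild-type had no reads of it. The wild-type values of saga rest on 1, 5 and 1 reads of saga. How many other genes do not overlap on these scales was not computed. All wild-type values per asmt read rest on 3 to 7 reads of asmt in a library. At the opn4 dko values per asmt read, so few asmt reads would go with few or no reads of grk7a, sagb or grk7b. These values were 0.133 to 0.287 for grk7a, 0.192 to 0.321 for sagb and 0.0765 to 0.114 for grk7b. The asmt scale therefore cannot show a lower wild-type value for any of them. The same holds for grk7b on the scale of all markers, at 3.91 to 5.92 per 100 marker reads in opn4 dko. Whether the amount of pineal tissue differed between the dissections was not tested, and the markers themselves differ with genotype.

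**Figure D4:**
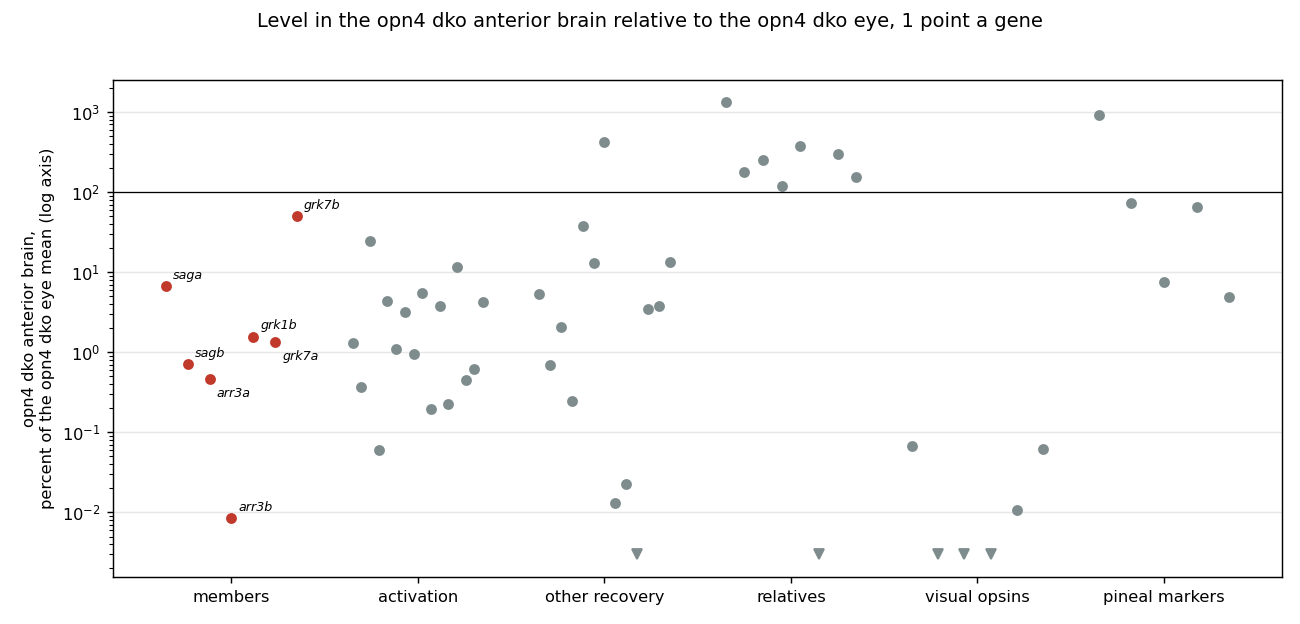
Mean level in the opn4 dko anterior brain in percent of the mean in opn4 dko eyes, on a log axis, with 1 point for each gene that has reads in opn4 dko eyes. Red points are the members, grey points the genes of 5 lists, and triangles at 0.003 mark genes without reads in the opn4 dko anterior brain. Members lie between 0.00842% (arr3b) and 49.7% (grk7b), cone opsins at or under 0.0676%, and 7 of the 8 relatives above 100%.

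Across the 18 libraries the members' patterns resembled each other, since the eye was high for each of them. As a description, Pearson's r of log2(CPM + 1) over the 18 libraries, which share tissues and lanes, was 0.996 between sagb and arr3a and between sagb and grk7a, 0.970 between saga and arr3a, and 0.700 to 0.865 between grk7b and the other members. Of all genes, the nearest to saga were gngt1, a rod transducin subunit (r = 0.9896), rbp4l, a retinol-binding protein (0.9856), and rcvrn3 (0.9832). The nearest to arr3a were sagb (0.9959), si:ch1073-155h21.2 (0.9938) and gucy2f, a photoreceptor guanylyl cyclase (0.9919). The nearest to grk7a were cnga1a (0.9979), sagb (0.9956) and crx, a photoreceptor transcription factor (0.9955).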

How the data were processed

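Polyadenylated RNA of 18 pools (3 for each tissue and genotype) gave single-end reads (100 bp). The authors deposited raw counts of reads per gene, with no normalisation. The deposited commands map the reads to GRCz10 with HISAT, whereas the study's methods name NextGenMap, and use featureCounts to assign reads to whole genes of Ensembl release 86 in their sense strand, with mapping quality 20 as the minimum. How reads were split between paralogues was not checked. The study's own tests used edgeR 3.9 (submitters' processing notes).

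Here edgeR 4.0.16 in R 4.3.3 was run on the deposited counts: TMM, filterByExpr (minimum count 10, minimum total 15), prior count 0.125, quasi-likelihood F-test and Benjamini-Hochberg adjustment over all genes tested. Genotypes were compared within tissues (3 against 3 libraries), and interactions and tissues in a fit of all 18 libraries. The standard error is the log2 fold change divided by the square root of F. A group without reads was set to 3 counts in each library. Totals of 2186877 to 6946549 set the precision, and the floors and the exact intervals of shares and ratios cover counting error only, whereas the intervals of log2 fold changes come from the quasi-likelihood fit and include the spread between pools. Shares within a library were compared with an exact permutation test where a library had at least 20 reads. No pair of libraries of a group agreed within sampling noise (chi-square per degree of freedom 7.17 to 20.6).

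The members and lists were chosen with earlier results of these data known. Symbols were found for 82.7% of the identifiers, and arr3b and grk1a were matched through the RefSeq synonyms arr3 and grk1. Named from each list were the 2 tested genes with the largest and the 1 with the smallest change in the anterior brain, all relatives, and the 3 genes most like saga, arr3a and grk7a, while other genes were named after their values were seen. Alternatives were DESeq2 1.42.0 and edgeR's exact test, library sizes from RLE, from the upper quartile or from actb1, dropping the filter or requiring 10 counts in all libraries, the 18-library fit, a replicate block, an FDR of 0.01, 50 reads for shares, and each library left out. Sequencing lane as a term, and replicates 2 and 3 alone, were added after seeing the data. The procedure was tested on simulated data, with changes placed only in better counted genes. The simulation therefore does not cover calls that rest on almost no wild-type reads, as those of the members do. Figures were drawn with matplotlib 3.10.9.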

Additional observations from a re-analysis of the deposited data

Results flagged for a closer look

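For 4 genes the difference between opn4 dko and wild-type was not the same in the anterior brain and in the eye, by the interaction in the fit of all 18 libraries. The difference of the log2 fold changes, anterior brain minus eye, was 8.01 for saga, 5.36 for sagb, 6.01 for arr3a and 9.17 for grk7a. The value for grk7a depends on the prior count, since no wild-type anterior brain had a read of it, and is no bound.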

How the results depend on the processing

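In the anterior brain 4 members were called, and 3 to 5 under the alternatives, except that none was left to test with at least 10 counts in every library (0 called), since wild-type had fewer. With each library left out 4 to 5 were called, and all 4 calls held without the first opn4 dko library. Among replicates 2 and 3 alone 3 were called. In the posterior brain the 1 call fell to 0 with at least 10 counts in every library, with the replicate block, at an FDR of 0.01 and with lane as a term, and was 0 to 1 with each library left out. The cause was not tested. Counts in the eye and of interactions and tissues stayed within 1.5 times, at 0 in the eye and for the anterior against the posterior brain interaction under every alternative, and at 3 to 4 for anterior brain minus eye.

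The replicate block left 4 members called in the anterior brain and 0 in the eye. The correlation of the deviations of same-numbered libraries ranged from -0.015 to 0.122. It was above 0 in 18 of 21 comparisons, above 0.1 in 1, and highest for the library's own number in 15 of 21. Between genotypes these were all 3 in the posterior brain, 1 of 3 in the anterior brain and 2 of 3 in the eye. Within opn4 dko they were all 3 between anterior brain and eye, and all 3 between anterior and posterior brain. Within wild-type they were 1 of 3 and 2 of 3 for these pairs of tissues. This is a hint from the data that numbers share something, and the labels do not say what a number marks. The main comparisons between tissues treated the libraries as independent.

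Small effects changed sign. In the eye, actb1 scaling gave -0.30 for sagb and -0.34 for grk7b. With a library left out, log2 values ranged from -0.07 to 0.11 for sagb, -0.014 to 0.779 for grk1b and -0.16 to 0.49 for grk7b. Likewise ranges were -1.78 to 0.76 for sagb and -2.92 to 2.37 for arr3b in the anterior minus posterior interaction, -2.64 to 2.62 for arr3b in anterior minus eye, and, in wild-type anterior against posterior brain, -1.93 to 0.43 for saga and -3.80 to 0.29 for grk7b. Shares ranged from -0.38 to 0.633 percentage points for the rod arrestins between eyes, and for grk1b from -1.04 to 9.44 between eyes and from -0.152 to 9.20 between opn4 dko eye and anterior brain. With 50 reads as the minimum, grk7a and grk1b shares could not be compared in the anterior brain. Over all genes the anterior brain count of 161 was 272 with the exact test and 355 without the filter and 94 at an FDR of 0.01, and that of 55 in the posterior brain was 159 with the exact test, 226 without the filter, 132 with DESeq2, 160 with actb1 scaling, 18 in the 18-library fit and 18 at an FDR of 0.01. In the eye 4 became 17 with the exact test or actb1 scaling, 16 without the filter, 31 with DESeq2 and 34 in the 18-library fit. Depth limits every statement on genes near 3 reads in a library.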

Other observations

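The first replicate of the opn4 dko anterior brain had the highest CPM of saga, sagb, arr3a, grk1b and grk7a, the highest sum of pineal markers and the highest sum of pigment epithelium markers of the 3 libraries, whereas grk7b was highest in the second.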
